A study of Mus musculus with 30 samples.

Results

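The genes described here are 10 members of 4 small families of early response and antiproliferative genes, measured in sorted mouse bone marrow progenitors. They are the Krüppel-like factors Klf2, Klf4, Klf6 and Klf10, the orphan nuclear receptors Nr4a1 and Nr4a2, the BTG proteins Btg1 and Btg2, and the RNA-binding proteins Zfp36 and Zfp36l2. They were taken by gene name from the count tables of hematopoietic stem cells (HSCs) and of multipotent progenitors (MPPs), where each name occurs on a single row among 55471 genes. All 10 passed the filter on low counts in both tables. The animals were C57BL/6 mice. The tested mice were given MTP10-HDL, a high-density lipoprotein nanoparticle with a muramyl peptide that is sensed through Nod2, and the other mice were given phosphate-buffered saline (PBS). There were 6 MTP10-HDL and 7 PBS libraries of HSCs, and 3 MTP10-HDL and 2 PBS libraries of MPPs. Cells of 4 mice went into each RNA library of either cell type. The p-values therefore describe variation between pools, not between single animals. For the MPP mice the labels give 3 injections over 5 days with killing on the day after the last one, lineage depletion on magnetic beads and then flow sorting. No schedule for the HSC mice is given in the sources used here. A further 12 ATAC-seq samples were not analysed here.

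Transcripts of these families appear within minutes to hours after a cell receives a stimulus, and most are short-lived. Krüppel-like factors bind GC-rich and CACCC elements through zinc fingers and are known to restrain cell division or direct differentiation. NR4A receptors act without a known physiological ligand and are known from mouse knockouts to hold back proliferation of stem cells and the onset of myeloid leukemia. BTG proteins bring the CCR4-NOT deadenylase to messenger RNA and slow the cell cycle, and ZFP36 proteins bring the same complex to AU-rich elements in cytokine and other short-lived transcripts.

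In RefSeq build GRCm38.p6, which is mm10, the Krüppel-like genes lie apart from one another: Klf2 (ENSMUSG00000055148) on chromosome 8 from 72319062 to 72321654, Klf4 (ENSMUSG00000003032) on chromosome 4 from 55527137 to 55532475, Klf6 (ENSMUSG00000000078) on chromosome 13 from 5861489 to 5870393 and Klf10 (ENSMUSG00000037465) on chromosome 15 from 38291464 to 38300711. The NR4A genes are Nr4a1 (ENSMUSG00000023034) on chromosome 15 from 101253902 to 101274795 and Nr4a2 (ENSMUSG00000026826) on chromosome 2 from 57106830 to 57124003. The BTG genes are Btg1 (ENSMUSG00000036478) on chromosome 10 from 96617001 to 96622813 and Btg2 (ENSMUSG00000020423) on chromosome 1 from 134074865 to 134079155. The ZFP36 genes are Zfp36 (ENSMUSG00000044786) on chromosome 7 from 28376784 to 28379228 and Zfp36l2 (ENSMUSG00000045817) on chromosome 17 from 84183924 to 84187947.

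Totals ran from 5467455 to 7641976 counts in HSC MTP10-HDL libraries and from 4064155 to 7879858 in HSC PBS libraries. In MPPs they ran from 17555267 to 32769369 with MTP10-HDL and from 11252479 to 14691375 with PBS. HSC and MPP libraries were made with different kits, and levels are set side by side only within a cell type and for the same gene. Levels are CPM, the counts of a gene relative to the scaled library total. HSC markers summed to 1387 to 2106 CPM in HSC MTP10-HDL libraries and 1361 to 2689 CPM in HSC PBS libraries, with none of the 10 markers at 0 throughout. The 5 MPP markers summed to 2629 to 2699 CPM and 2177 to 2550 CPM in MPP MTP10-HDL and PBS libraries. B cell markers were present in every library, at 1408 to 23864 CPM with MTP10-HDL and 1231 to 94489 CPM with PBS in HSCs. Since these are bulk samples, fewer cells of a type and less RNA per cell cannot be told apart.

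Most of the 10 genes were lower on average with MTP10-HDL, but none passed the false discovery rate (FDR) threshold of 0.05 in either cell type, and a few libraries carried most of the difference. In HSCs 7 of 10 had a negative log2 fold change (MTP10-HDL over PBS throughout), where 52.3% of all genes did, with a median of -0.89 for the 10 genes beside -0.02 over all 16631 genes tested. In MPPs all 10 were negative, where 48% of all genes were, with a median of -0.98 beside 0.02 over 15449 genes tested. edgeR called 0% of genes in HSCs and 0% in MPPs. At an unadjusted p under 0.05 it had 4 of the 10 lower in HSCs and 5 of the 10 lower in MPPs, where 4.47% of HSC genes and 4.06% of MPP genes were lower by that rule. DESeq2 called 104 genes in HSCs and 163 in MPPs, and no member was among them in either.

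Klf2, a factor known for keeping lymphocytes quiescent and for controlling their trafficking, was the Krüppel-like gene with the largest fitted difference. In HSCs it ran from 0 through a median of 3.00 to 5.84 CPM with MTP10-HDL, and from 0.804 through 15.7 to 26.7 CPM with PBS. MTP10-HDL libraries all lay at or under 5.84 CPM, and PBS 1 to 5 lay above that value while PBS 6 and 7 lay within the range of the treated libraries. The log2 fold change was -2.13 (SE 0.74, edgeR adjusted p = 0.446). MTP10-HDL 2 had 0 Klf2 counts, which allows a level of up to 0.486 CPM (3 counts, covering counting error only).

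Klf6, a widely induced early gene that is needed for blood formation in the mouse yolk sac, had a higher top in PBS libraries. It ran from 67.2 through 93.8 to 190.0 CPM with MTP10-HDL and from 49.3 through 124 to 431 CPM with PBS. PBS 2, 3 and 4 were above every treated library, at 251, 402 and 431 CPM, and PBS 7 was below every one. The log2 fold change was -0.87 (SE 0.44, adjusted p = 0.576), and it was -0.58 without PBS 4. Klf4, a monocyte differentiation factor, ran from 5.02 through 12.3 to 23.2 CPM with MTP10-HDL and from 2.42 through 14.1 to 21.3 CPM with PBS. Its groups overlapped over nearly their whole range, and its log2 fold change was 0.06 (95% interval -0.88 to 1.00). Klf10, a gene induced by transforming growth factor beta, ran from 48.1 through 67.8 to 90.8 CPM with MTP10-HDL and from 40.0 through 58.6 to 97.8 CPM with PBS. Its log2 fold change was 0.15 (95% interval -0.32 to 0.62), the narrowest interval of the 4 Krüppel-like genes.

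The NR4A genes were low in most libraries of both treatments and high in a few PBS libraries. Nr4a1, which encodes Nur77 and marks recent antigen receptor signalling in lymphocytes, was at 23.0, 7.29, 5.98, 2.84, 8.92 and 5.61 CPM in HSC MTP10-HDL libraries 1 to 6. In HSC PBS libraries 1 to 7 it was at 3.57, 46.1, 58.2, 108, 12.4, 9.65 and 5.72 CPM. Thus PBS 2, 3 and 4 were above every treated library, and the other 4 PBS libraries lay within the treated range. The log2 fold change was -1.97 (SE 0.70, adjusted p = 0.469), and -1.34 without PBS 4. Nr4a2, which encodes Nurr1, ran from 0.648 through 5.45 to 8.80 CPM with MTP10-HDL and from 2.11 through 8.81 to 34.8 CPM with PBS. The same PBS libraries, 2, 3 and 4, held its 3 highest values, at 11.9, 23.3 and 34.8 CPM. Its log2 fold change was -1.33 (SE 0.60, adjusted p = 0.554), and -0.85 without PBS 4.

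Btg1 and Btg2 had fitted differences of under 1 log2 unit in HSCs. Btg1 ran from 24.7 through 48.9 to 109 CPM with MTP10-HDL and from 9.25 through 111 to 130.0 CPM with PBS (log2 fold change -0.54, SE 0.46, adjusted p = 0.735). PBS 2 to 5 were above every treated library, and PBS 7 was below every one. Btg2, a target of p53, ran from 15.4 through 26.5 to 80.8 CPM with MTP10-HDL and from 10.3 through 53 to 159 CPM with PBS. MTP10-HDL 1 was the only treated library above 29.2 CPM, and PBS 2 held the top value. The Btg2 log2 fold change was -0.91 (SE 0.51, adjusted p = 0.597). It was -1.38 without MTP10-HDL 1 and -0.47 without PBS 2.

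The 2 ZFP36 genes differed in behaviour across the HSC libraries. Zfp36, which encodes tristetraprolin, was at 235, 125, 127, 70.8, 126 and 109 CPM in MTP10-HDL libraries 1 to 6, and at 127, 537, 513, 557, 261, 89.1 and 52.0 CPM in PBS libraries 1 to 7. PBS 2, 3 and 4 were again the highest, and PBS 7 was again the lowest. The log2 fold change was -1.21 (SE 0.48, adjusted p = 0.500). Zfp36l2, which mice need for blood formation, ran from 236 through 272 to 319.8 CPM with MTP10-HDL and from 209.8 through 260.4 to 339 CPM with PBS. Its log2 fold change was 0.07, with a 95% interval of -0.22 to 0.36, the narrowest of the 10. For none of the 10 genes did the HSC groups separate, and 0.343% of all genes tested had HSC groups that did not overlap.

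**Figure D1:**
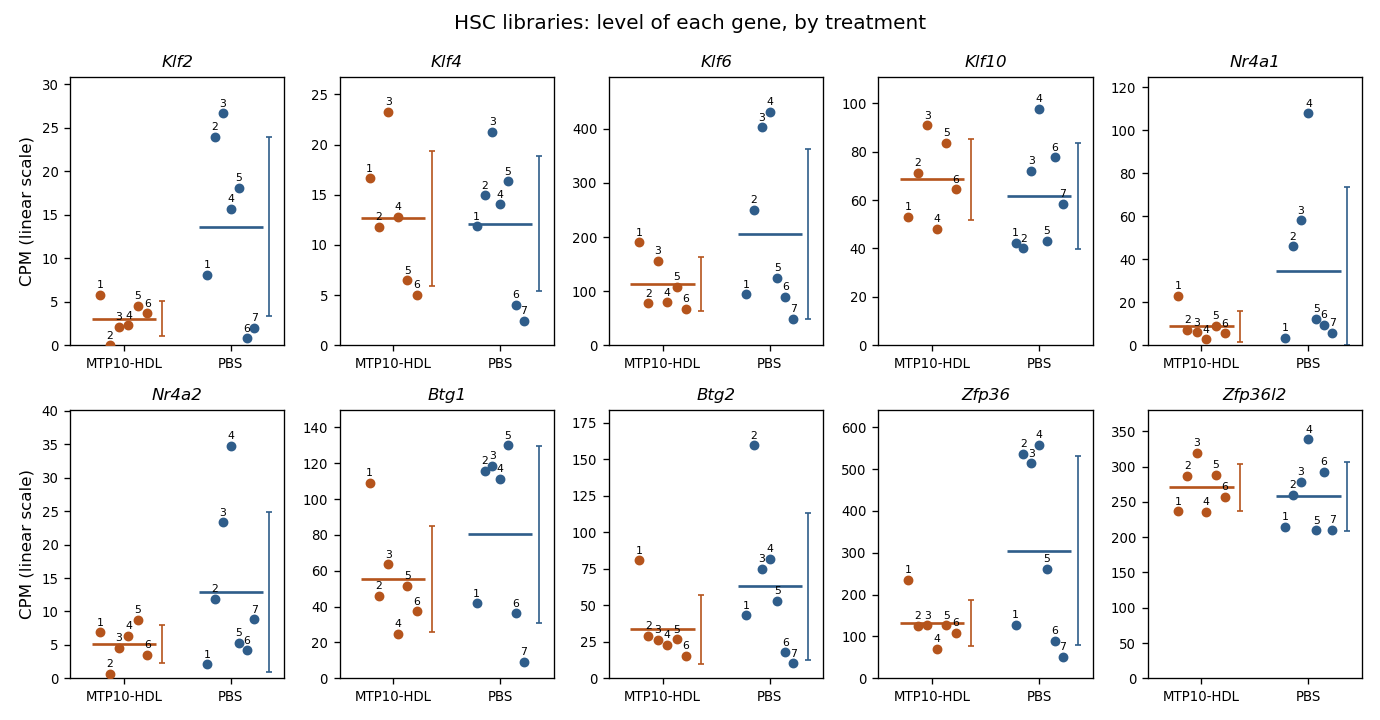
Level of each of the 10 genes in every HSC library, in CPM on linear axes that start at 0. Points are libraries with their numbers, horizontal lines are group means and the bars beside them are 1 SD, cut at 0. PBS 2, 3 and 4 were the 3 highest of the 13 libraries for Klf6, Nr4a1, Nr4a2 and Zfp36, whereas the groups of Klf10 and Zfp36l2 overlapped over most of their range.

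HSC PBS 4 held the highest level of 6 of the 10 genes, where 12.4% of all genes tested had their highest level in that library. PBS 2, 3 and 4 each ranked among the 3 highest libraries for 7 of the 10 genes, and PBS 7 among the 3 lowest for 7 of the 10. Immediate early genes of the AP-1 and EGR families and their neighbours, none of them a member, followed the same libraries. Their summed level was 752 to 1337 CPM in MTP10-HDL libraries and 620 to 3363 CPM in PBS libraries, with PBS 2, 3 and 4 at 2775, 2707 and 3363 CPM and the next PBS library at 1226 CPM. Heat shock genes summed to 2423, 2676 and 2871 CPM in PBS 2, 3 and 4, inside the range of 2313 to 3605 CPM in MTP10-HDL libraries. Most of these sums was Hsp90ab1, at 1634.5, 1950 and 2024 CPM in PBS 2, 3 and 4, where Hspa1a and Hspa1b were at most 1.76 CPM.

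The 3 high PBS libraries differed in their technical features. PBS 4 had the fewest detected genes of all HSC libraries, 24233. PBS 2 and 3 had ribosomal RNA shares of 1.12% and 1.21%, where the MTP10-HDL libraries ran from 0.101% to 1.26%. These shares leave out mitochondrial ribosomal RNA, which took 21.1%, 23.9% and 20.4% of counts in PBS 2, 3 and 4. Across all HSC libraries it took 12.4% to 27.9%. PBS 2 also had the largest immunoglobulin share, 19.8% of counts, and the highest sum of B cell markers, 94489 CPM. Among the treated libraries MTP10-HDL 1 was highest for Klf2, Klf6, Nr4a1, Btg1, Btg2 and Zfp36, and it also had the highest sums of monocyte and macrophage markers (7735 CPM) and of neutrophil markers (5790 CPM) of the HSC libraries. All 10 monocyte and macrophage markers and all 10 neutrophil markers were detected in HSCs. Monocyte and macrophage sums ran from 709 to 7735 CPM with MTP10-HDL and from 420.3 to 2670.0 CPM with PBS, and neutrophil sums from 615 to 5790 CPM and from 113 to 3819 CPM. The part of these other cells in the members' values was not tested.

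Within technical groups of HSC libraries the differences were unequal. Libraries with few detected genes (MTP10-HDL 2 and 3, PBS 1 and 4) gave Zfp36 a difference in mean log2 CPM of -1.08. The difference was -2.02 in libraries with a high ribosomal RNA share (MTP10-HDL 1 and 4, PBS 2 and 3) and 0.14 in the other 5. The 3 values for Nr4a1 were -1.57, -2.60 and -0.30 in the same order of technical groups, for Klf2 -3.70, -2.67 and 0.28, and for Klf6 -0.88, -1.37 and 0.06. Those of Nr4a2 were -2.09, -1.29 and -0.05, those of Btg2 -1.09, -1.34 and -0.08, and those of Btg1 -0.33, -1.17 and 0.31. The group of other libraries holds PBS 5, 6 and 7 and none of PBS 2, 3 and 4, and every one of these differences in it lay between -0.30 and 0.31. Within it, PBS 5 was above every treated library for Klf2, Btg1 and Zfp36, and PBS 6 and 7 were the lowest PBS libraries for these genes. Klf4, Klf10 and Zfp36l2 had differences between -0.28 and 0.35 in all 3 groups. With the technical group as a covariate, Klf2, Nr4a1 and Zfp36 had log2 fold changes of -2.10, -1.72 and -1.06, and no gene passed the threshold.

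**Figure D2:**
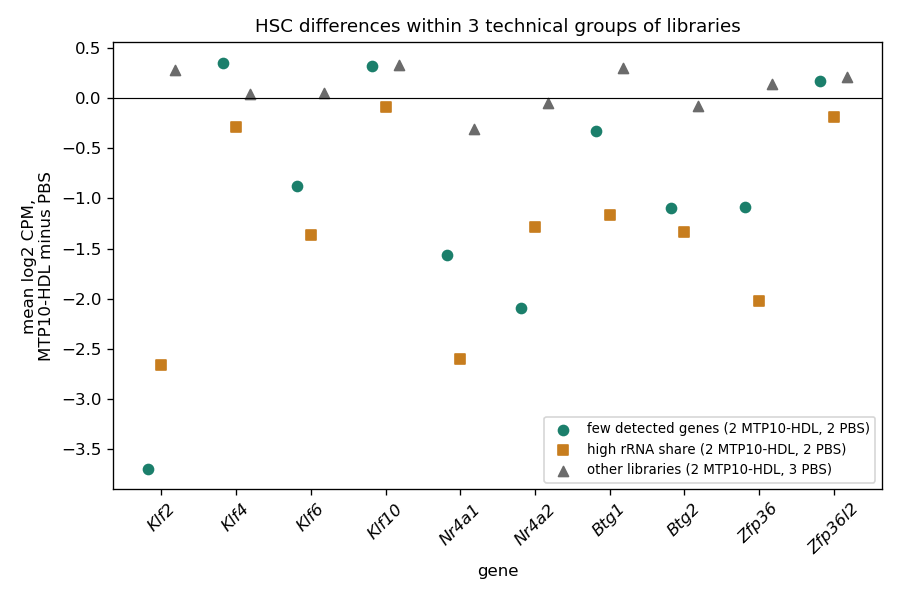
Difference in mean log2 CPM, MTP10-HDL minus PBS, for each gene within 3 technical groups of HSC libraries, with no test. The triangles of the 5 other libraries lie between -0.30 and 0.33, while circles and squares reach -3.70 and -2.67 for Klf2.

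In MPPs a single PBS library carried the difference. Nr4a1 was at 4.48, 19.5 and 5.89 CPM in MTP10-HDL libraries 1, 2 and 3, and at 6.40 and 134 CPM in PBS libraries 2 and 3. PBS 2 thus lay within the treated range, and PBS 3 was 21.0 times as high as PBS 2. The log2 fold change of Nr4a1 was -2.82 (SE 1.06, adjusted p = 0.748), and without PBS 3 it was 0.64 (95% interval -1.34 to 2.62). That fit leaves 1 PBS library, which is assumed to vary like the treated ones.

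Klf6 was at 60.9, 84.7 and 55.8 CPM in MTP10-HDL MPPs and at 62.3 and 431 CPM in PBS MPPs, a log2 fold change of -1.88 (SE 0.65, adjusted p = 0.724). Klf2 was at 4.60, 18.2 and 3.30 CPM with MTP10-HDL and at 8.71 and 73.8 CPM with PBS, a log2 fold change of -2.24 (SE 0.93, adjusted p = 0.787). Zfp36 was at 56.7, 129 and 63.3 CPM with MTP10-HDL and at 90.9 and 364 CPM with PBS, a log2 fold change of -1.45 (SE 0.57, adjusted p = 0.770). For all 3 genes MTP10-HDL 2 was the highest treated library, PBS 2 lay within the treated range and PBS 3 stood above every other library. Without PBS 3 their log2 fold changes were 0.11, 0.00 and -0.13.

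Btg2 was one of 2 genes whose MPP groups did not overlap. It was at 42.2, 44.3 and 39.3 CPM with MTP10-HDL and at 54.9 and 81.8 CPM with PBS, a log2 fold change of -0.70 (SE 0.23, adjusted p = 0.679). Without PBS 3 its log2 fold change was -0.39. Zfp36l2 was the other, at 672, 562 and 675 CPM with MTP10-HDL and 712 and 896 CPM with PBS (log2 fold change -0.34, SE 0.23, adjusted p = 0.875). Of all MPP genes tested 24.3% had groups that did not overlap, so 2 of 10 is near the background. Btg1 was at 37.8, 42.4 and 44.0 CPM with MTP10-HDL and 40.8 and 87.9 CPM with PBS, Nr4a2 at 3.89, 3.41 and 2.26 CPM with MTP10-HDL and 3.40 and 11.9 CPM with PBS. Klf4 was at 4.92, 8.27 and 8.86 CPM with MTP10-HDL and 5.51 and 18 CPM with PBS, and Klf10 at 63.8, 56.0 and 84.2 CPM with MTP10-HDL and 49.1 and 99.0 CPM with PBS. All 4 had their highest value in PBS 3 and a PBS 2 value no higher than the highest treated library.

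**Figure D3:**
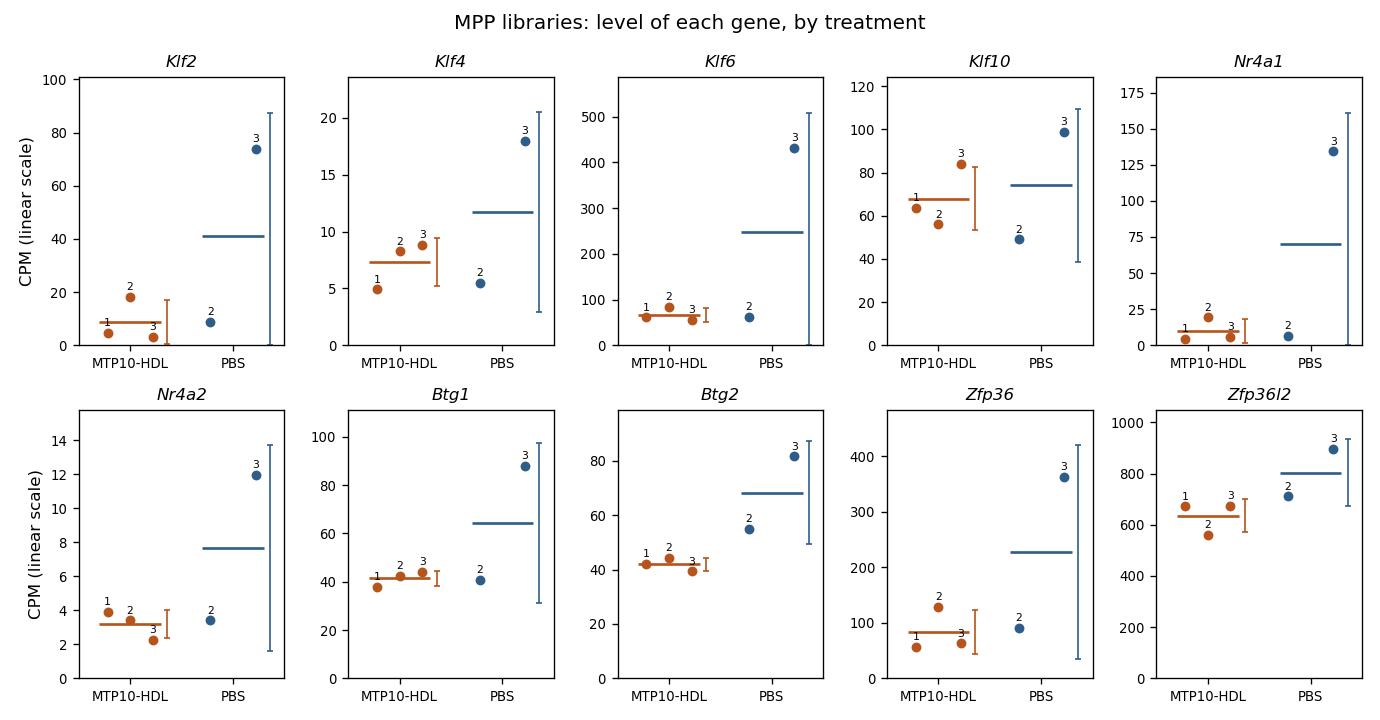
Level of each of the 10 genes in every MPP library, in CPM on linear axes that start at 0. Points are libraries with their numbers, lines are group means and bars are 1 SD, cut at 0. PBS 3 is the highest library in every panel, and PBS 2 lies above all 3 MTP10-HDL libraries for Btg2 and Zfp36l2.

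MPP PBS 3 was the highest of the 5 libraries for all 10 genes, while 16.3% of all genes tested were highest there. Between the 2 PBS libraries 8 of 10 members were over 2-fold higher in PBS 3, a difference shown by 6.27% of all genes tested. The immediate early genes that are no members summed to 4184 CPM in PBS 3, to 986 CPM in PBS 2, and to between 908 and 1711 CPM in the MTP10-HDL libraries. Other measures also parted the treatments in these 5 MPP libraries, where 24.3% of all genes tested had groups that did not overlap. The sums of neutrophil markers overlapped, at 248 to 1711 CPM with MTP10-HDL and 617 to 805 CPM with PBS. Ribosomal RNA, again without the mitochondrial part, took 0.508% to 0.915% of counts with MTP10-HDL and 1.26% to 1.47% with PBS. Mitochondrial ribosomal RNA took 0.138% to 0.185% with MTP10-HDL and 0.0734% to 0.165% with PBS. Immunoglobulin genes took 2.76% to 4.26% with MTP10-HDL and 6.20% to 12.5% with PBS. B cell markers, of which 6 of 10 were lower, summed to 12574 to 17421 CPM with MTP10-HDL and 23061 to 49865 CPM with PBS. HSC markers, of which 9 of 10 were lower without passing, summed to 922 to 1151 CPM with MTP10-HDL and 1492 to 1678 CPM with PBS. Monocyte and macrophage markers summed to 375 to 581 CPM with MTP10-HDL and 583 to 677 CPM with PBS. Of the 9 tested 5 were lower, and Cd14 and Fcgr1 were under 1 CPM on average. The treatment and these measures cannot be told apart in 5 libraries.

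The responses of the 2 cell types were compared in a joint fit. No member passed for the difference between the MPP and the HSC response, and 0.00409% of all genes passed (1 gene, the predicted gene Gm43360, named after its value was seen). At an unadjusted p under 0.05 the fit had 0 of the 10 members and 3.86% of all genes, and DESeq2 called 2 genes and no member. The difference, MPP response minus HSC response, was -0.06 for Klf2 (95% interval -2.81 to 2.7), -0.78 for Nr4a1 (-3.45 to 1.89) and -0.20 for Zfp36 (-1.96 to 1.55). These intervals are several log2 units wide. Zfp36l2 had the narrowest one, -0.97 to 0.21 around -0.38.

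**Figure D4:**
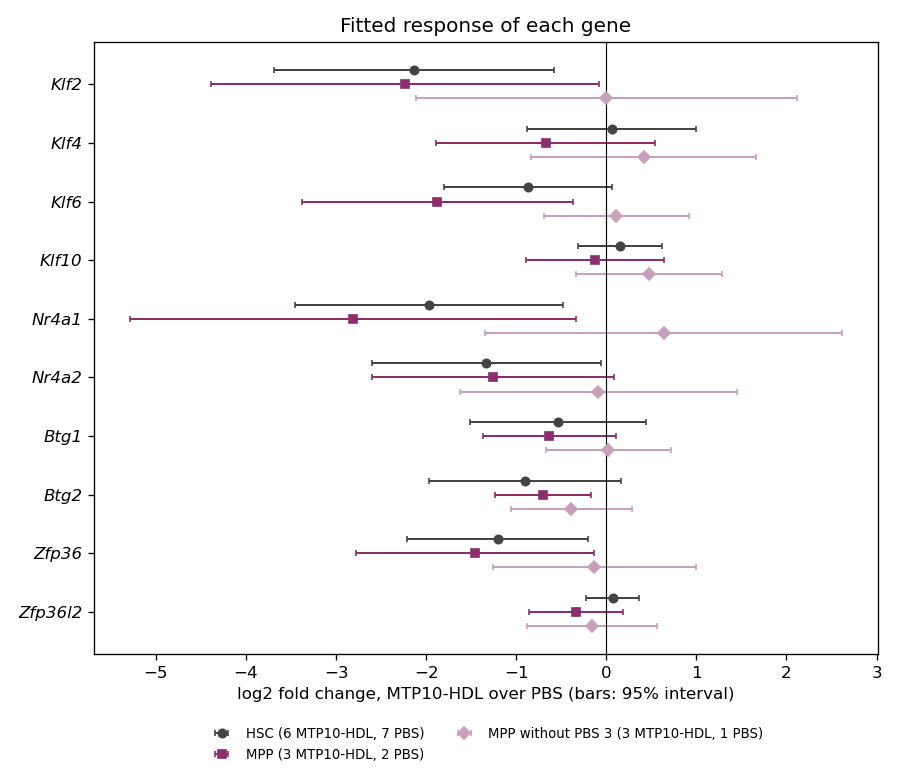
Fitted log2 fold change of each gene, MTP10-HDL over PBS, with 95% intervals, in HSCs, in MPPs and in MPPs without PBS 3. Klf2, Nr4a1 and Zfp36 lie at -2.13, -1.97 and -1.21 in HSCs and at -2.24, -2.82 and -1.45 in MPPs, and the MPP values without PBS 3 lie at 0.00, 0.64 and -0.13.

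Most of the 10 genes were among the more variable genes between libraries of the same treatment. The SD of log2 CPM within HSC groups was 1.68 for Klf2, 1.48 for Nr4a1, 1.27 for Nr4a2 and 1.09 for Zfp36. Each of these exceeds that of at least 96.6% of the 9697 HSC genes with a mean of 10 CPM or more, although Nr4a2 and Klf2 themselves lie below that mean. Zfp36l2 was the exception, with an SD of 0.23, at percentile 14.4, and Klf10 had 0.44, at percentile 67.9. In MPPs the SDs of Nr4a1, Klf2 and Klf6 were 2.00, 1.64 and 1.17, at percentiles 99.7, 99.6 and 99.0 of the MPP genes above the same mean, and that of Zfp36l2 was 0.18, at percentile 26.3.

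After each group's mean was subtracted, several of the 10 genes covaried across the 13 HSC libraries, which share depth and kit effects. Zfp36 correlated with Btg1 (Pearson r = 0.92), Klf6 (0.92), Btg2 (0.91) and Nr4a1 (0.89). Klf2 correlated less tightly with these 5, at 0.52 to 0.70, and so did Nr4a2, at 0.31 to 0.68, and Klf4, at 0.47 to 0.80. Klf10 and Zfp36l2 paired with each other at 0.84, while Klf10 had values of -0.22 with Klf2, -0.21 with Btg2 and 0.09 with Zfp36. Zfp36l2 was not apart from the others to the same degree, at 0.58 with both Nr4a1 and Klf6 and 0.42 with Zfp36. Across the 5 MPP libraries Klf10 was at 0.89 with Btg1, 0.83 with Klf4 and 0.74 with Klf6, and at 0.38 with Klf2. The median over the 45 pairs was 0.58 in HSCs and 0.83 in MPPs. The deviations of the 2 MPP PBS libraries from their mean mirror each other, and all 10 genes were highest in PBS 3. The MPP correlations therefore rest largely on that difference, and the 2 medians cannot be compared. Genes outside the 10 with the most similar HSC pattern to their mean profile, among 9191 genes with an established symbol, were Fos (0.96), Dusp1 (0.94), Rgs1 (0.93), Nfkbiz (0.93) and Ier2 (0.89), followed by Ubl3, Fosb, Zfand5, Rhob and Sik1 (0.87 to 0.88).

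Single members differed in their nearest genes. Zfp36 was most like Dusp1 (0.96) and Fos (0.94), Nr4a1 most like Plk2 (0.92), Klf6 most like Zfand5 (0.93), Btg2 most like Mcl1 (0.95) and Btg1 most like Cytip (0.88). Klf10 was most like Gata2 (0.95), a transcription factor of stem and progenitor cells. Zfp36l2 was most like Cdk17 (0.93), then Ripor2 (0.92) and then Cnot1 (0.91), the scaffold of the CCR4-NOT complex. Klf2 was most like Uvrag (0.85), Klf4 most like Mbip (0.90) and Nr4a2 most like Snrpc (0.93). These values are the highest among 9191 genes, describe 13 libraries and carry no test.

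**Figure D5:**
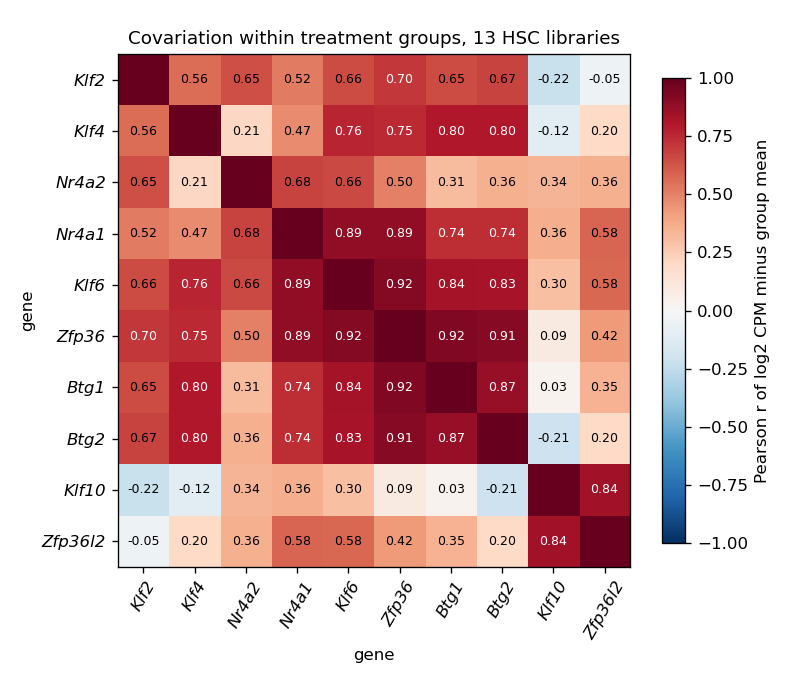
Pearson correlation of log2 CPM between the 10 genes across 13 HSC libraries, after subtraction of each treatment group's mean. Zfp36, Klf6, Nr4a1, Btg1 and Btg2 form a block with values from 0.74 to 0.92, and Klf10 and Zfp36l2 are at 0.84 with each other.

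Nr4a1, Nr4a2, Btg2 and Zfp36 had their highest level in a PBS library in both cell types, as had every other member but Klf4. The promoters of these 4 genes are shown, because the motifs of stimulus-responsive factors in them differ. Each is the 250 bases before the RefSeq start site in build GRCm38.p6, which is mm10, written in the direction of transcription. The Nr4a1 window precedes a start site inside the gene's span as given above, and the other 3 windows adjoin the end of theirs. Capitals mark the cyclic AMP response element TGACGTCA, its half-site TGACG on either strand, and the CArG box bound by serum response factor.
Nr4a1, chr15:101266596-101266845, plus strand: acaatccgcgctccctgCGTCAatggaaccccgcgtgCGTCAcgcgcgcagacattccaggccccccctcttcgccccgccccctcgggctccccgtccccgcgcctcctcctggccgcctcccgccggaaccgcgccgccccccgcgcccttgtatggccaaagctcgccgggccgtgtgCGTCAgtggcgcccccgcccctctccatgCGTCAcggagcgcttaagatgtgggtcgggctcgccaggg
Nr4a2, chr2:57124004-57124253, minus strand: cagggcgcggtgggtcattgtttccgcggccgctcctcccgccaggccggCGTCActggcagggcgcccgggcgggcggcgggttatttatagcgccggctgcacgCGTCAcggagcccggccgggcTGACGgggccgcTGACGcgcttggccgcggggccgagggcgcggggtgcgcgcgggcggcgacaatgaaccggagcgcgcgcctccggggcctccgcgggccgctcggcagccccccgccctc
Btg2, chr1:134079156-134079405, minus strand: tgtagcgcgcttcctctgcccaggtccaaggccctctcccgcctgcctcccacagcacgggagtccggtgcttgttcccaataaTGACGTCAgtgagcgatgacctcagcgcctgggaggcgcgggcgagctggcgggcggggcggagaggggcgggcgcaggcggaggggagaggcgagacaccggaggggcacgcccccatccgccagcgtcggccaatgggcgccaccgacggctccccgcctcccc
Zfp36, chr7:28379229-28379478, minus strand: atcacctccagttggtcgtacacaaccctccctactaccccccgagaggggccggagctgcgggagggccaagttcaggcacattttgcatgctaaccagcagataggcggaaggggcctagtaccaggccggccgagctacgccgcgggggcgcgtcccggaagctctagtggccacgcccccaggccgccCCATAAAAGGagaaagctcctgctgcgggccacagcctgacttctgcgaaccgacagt
Promoters were found in the table for 8 of the 10 genes, with Klf10 and Zfp36l2 missing. The half-site TGACG, searched on both strands and counted also where it lies in the full element, was present in 6 of the 8 and in 17.8% of 32544 promoter windows of the same length. Nr4a1 and Nr4a2 had 4 each, Btg1 and Btg2 had 2 each, Klf2 and Klf4 had 1 each, and Klf6 and Zfp36 had none in this window. The full element TGACGTCA was present in Btg2 (1.55% of windows), with its first base 166 bases before the start site, and the CArG box in Zfp36 (1.48% of windows), with its first base 58 bases before it. The GC box GGGCGG was present in 8 of 8 (33% of windows), the EGR motif GCGNGGGCG, which can overlap it, in 6 of 8 (4.74%), and the AP-1 motif TGANTCA in 0 of 8 (6.73%). The 32544 windows were not matched to those of the 8 genes in base composition, and its part in these shares was not tested. A match is a run of letters and not evidence of binding in these cells.

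The nearest relatives of the members were also below the threshold. Nr4a3, the remaining NR4A receptor, was at 1.98 ± 1.13 CPM in HSCs with MTP10-HDL and 4.65 ± 3.39 CPM with PBS (SD, n = 6 and 7), a log2 fold change of -1.22 (SE 0.57), and it was too low to be tested in MPPs. Zfp36l1 had log2 fold changes of -0.56 (SE 0.35) in HSCs and -0.99 (SE 0.24, adjusted p = 0.429) in MPPs. Its MPP values were 39.2 ± 6.71 CPM with MTP10-HDL and 78.0 ± 17.5 CPM with PBS. Tob1 and Tob2, relatives of the BTG proteins, were within 0.35 of 0 on the log2 scale in both cell types, at -0.20 and 0.14 in HSCs and -0.35 and 0.09 in MPPs. Btg3 was tested only in MPPs, at -0.36 (SE 0.59).

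Other Krüppel-like and SP factors had medians nearer to those of all genes. Of 15 tested in HSCs 8 were higher and 7 lower, with a median of 0.11, and of 14 in MPPs 5 were higher and 9 lower, with a median of -0.04. Klf1, the erythroid member of the family, had the smallest p in both, at -1.01 (SE 0.37) in HSCs and -1.72 (SE 0.77) in MPPs. Klf1 is itself on the list of erythroblast markers, of which all 10 were lower in HSCs without passing. These markers summed to 96.0 to 238 CPM and 222 to 536 CPM in HSC MTP10-HDL and PBS libraries, and to 21.3 to 43.2 CPM and 74.2 to 111 CPM in MPPs. Sp4 was at -0.32 (SE 0.15) in HSCs and Klf13 at 0.45 (SE 0.23) in MPPs. Klf3 was at -0.25 and 0.21, and Klf9, a glucocorticoid-induced gene, at 0.45 and 0.65, in HSCs and MPPs.

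Genes on which these proteins are known to act or with which they work gave mixed directions, and none passed. The CCR4-NOT deadenylase and its partners had medians of 0.07 in HSCs (9 of 15 higher) and 0.06 in MPPs (11 of 15 higher). Cnot8 was at 0.36 (SE 0.17) and Cnot9 at 0.41 (SE 0.19) in HSCs, and Tnks1bp1 at -0.72 (SE 0.27) and Cnot10 at 0.29 (SE 0.20) in MPPs. Known Klf2 targets had medians of 0.01 and -0.20. Thbd was at 0.69 (SE 0.33) in HSCs and S1pr1, the egress receptor, at -0.91 (SE 0.28) in MPPs.

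Genes of the transforming growth factor beta response, linked to Klf10 and Klf6, had medians of 0.09 in HSCs and -0.24 in MPPs. Bhlhe40 was at -0.90 (SE 0.32) and -1.16 (SE 0.44) in HSCs and MPPs, and Tgif1 at 0.36 (SE 0.17) and 0.41 (SE 0.19). Targets of p53, the list to which Btg2 is related, had medians of -0.03 and -0.01. Plk2, the gene most like Nr4a1 across HSC libraries, was at -2.13 (SE 0.57) in HSCs and -3.22 (SE 1.48) in MPPs. Trp53 itself was at 0.27 (SE 0.17) in HSCs and Eda2r at 2.34 (SE 1.09) in MPPs. In MPPs Plk2 was at 0.501 to 7.06 CPM with MTP10-HDL and at 0.749 and 52.3 CPM in PBS 2 and 3. Eda2r was at most 1.27 CPM in any MPP library. Transcripts with AU-rich elements that Zfp36 is known to destabilise had medians of -0.22 in HSCs (10 of 13 lower) and -0.55 in MPPs (12 of 14 lower). Among them Ccl3 was at -1.35 (SE 0.52) and Ptgs2 at -1.91 (SE 0.78) in HSCs, and Nfkbiz at -1.42 (SE 0.43) and Mcl1 at -0.57 (SE 0.23) in MPPs.

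No gene of the cell cycle lists passed. Quiescence genes and cell cycle inhibitors had medians of 0.09 in HSCs and 0.01 in MPPs, with Mxi1 at 0.23 (SE 0.15) and Mxd4 at 0.20 (SE 0.16) in HSCs and Foxo3 at -0.33 (SE 0.19) and E2f4 at 0.31 (SE 0.21) in MPPs. G1 cyclins and proliferation genes had a median of 0.01 in HSCs (8 of 16 higher) and 0.28 in MPPs (13 of 16 higher, 4 of them at an unadjusted p under 0.05). Of all 15449 MPP genes tested 8027 were higher, 334 of them at an edgeR unadjusted p under 0.05. Cdk6, the G1 kinase that controls exit of stem cells from quiescence, was at 0.39 (SE 0.14) in HSCs and 0.80 (SE 0.22, adjusted p = 0.559) in MPPs. Ccnd3 was at 0.31 (SE 0.14) in HSCs and Cdk1 at 0.59 (SE 0.19) in MPPs.

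Immediate early genes outside the 10 were lower in 24 of 26 cases in HSCs and 22 of 25 in MPPs, with medians of -0.65 and -0.98. Egr1 was at -1.83 (SE 0.58) and Jund at -1.62 (SE 0.52) in HSCs, and Sik1 at -1.74 (SE 0.45) and Trib1 at -1.02 (SE 0.32) in MPPs. Heat shock genes had medians of -0.01 and 0.49, with Hsp90ab1 at 0.32 (SE 0.14) and Dnaja1 at -0.34 (SE 0.15) in HSCs and Hspa1b at -1.33 (SE 0.37) and Hspe1 at 0.85 (SE 0.28) in MPPs. Glucocorticoid-responsive genes had medians of 0.14 and 0.44. Fkbp5, which encodes a chaperone partner of the glucocorticoid receptor, was at 104 ± 23.4 CPM with MTP10-HDL and 65.8 ± 21.0 CPM with PBS in HSCs, a log2 fold change of 0.66 (SE 0.20, adjusted p = 0.372). In MPPs it was at 290 ± 48.6 CPM with MTP10-HDL and 131 ± 10.9 CPM with PBS (1.14, SE 0.23, adjusted p = 0.320), and Cebpd was at 1.14 (SE 0.42).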

How the data were processed

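Read counts per Ensembl gene were compared between MTP10-HDL and PBS libraries, separately in HSCs and in MPPs. The authors deposited both tables as raw counts, whole numbers with no normalization. The submitters' processing notes name CASAVA 1.8.2 and STAR 2.5.2b for HSCs. For MPPs they name STAR 2.7.2a, DESeq2 1.24 and R 3.6.1. They name build mm10 for both. How reads were assigned to genes, and whether strand was used, is not stated in the labels. Per the labels' protocols, HSC RNA was amplified before library construction, and MPP RNA was selected for poly-A tails, with insect RNA as carrier. HSC PBS columns are numbered 1 to 7 and the labels 1 to 6 and 8, so these columns were used as a group under their own numbers.

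Counts were analysed in R 4.3.3 with edgeR 4.0.16: TMM scaling, filterByExpr at its defaults, quasi-likelihood F test, and Benjamini-Hochberg adjustment over all genes tested at 0.05. Standard errors are the log2 fold change divided by the root of F, and intervals use the fit's degrees of freedom. A joint fit with 4 group means tested the difference between responses. log2 CPM for correlations has a prior count of 2. Alternatives were DESeq2 1.42.0, other scaling and filters, each library left out, replicate number as a block and a technical group as covariate. Technical groups of HSC libraries are the 4 with the fewest detected genes, the 4 of the rest with the highest ribosomal RNA share, and the others. The ribosomal RNA share leaves out mitochondrial ribosomal RNA. The members and lists were chosen with earlier results of these data known. From each list the 2 genes of smallest p per cell type are named, along with the closest relatives of the members. A gene that this rule names among the Klf2 targets is not reported here. Some genes, such as Klf9, Myc and Cdkn1a, stand in more than 1 list. The scripts were tested on simulated data. Gene positions overlapping a member were found for Klf10 and Nr4a2 in RefSeq. The gene over Klf10, Gm35248, had at most 54 counts in an HSC library and 9 in an MPP library.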

Additional observations from a re-analysis of the deposited data

Results flagged for a closer look

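Klf2 in HSC MTP10-HDL 2 stood apart from the other 5 treated libraries. Its gap to the nearest library was 0.686 of the whole range of log2 CPM in the group, above the critical value of 0.625 for 6 libraries. The library had 0 Klf2 counts, at a log2 CPM of -1.62 with the prior count, against 1.29 in the next lowest. About 1 in 20 such groups is flagged by chance, and both HSC groups of each of the 10 genes were examined. Without that library the log2 fold change of Klf2 was -1.87. No difference between the MPP and the HSC response passed the threshold for a member.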

How the results depend on the processing

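No member was called under any HSC or joint setting. In MPPs 4 were called without a filter on low counts (Klf2, Klf6, Nr4a1 and Zfp36), and 0 in every other setting. Without that filter 345 genes passed in all, of at most 55471 tested. With the filter, leaving out PBS 3 moved the log2 fold changes of these 4 genes to 0.00, 0.11, 0.64 and -0.13. HSC genes called numbered 104 in DESeq2, 44 without the filter and 0 to 1 when a library was left out. MPP genes called numbered 163 in DESeq2, 59 with the replicate block and 0 to 17 when a library was left out. Genes called for the response difference numbered 1 in the joint fit, 0 at a mean of at least 10 CPM, 2 in DESeq2, and 0 to 2 when a library was left out. The cause of these changes was not tested.

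The log2 fold change of Klf4 in HSCs, 0.06, changed sign to -0.093 with the technical group as covariate, to -0.14 with the replicate block, and ranged from -0.20 to 0.26 when a library was left out. The other 9 kept their direction in HSCs. In MPPs, leaving out PBS 3 gave the highest values. The ranges over left-out libraries were -3.37 to 0.00048 for Klf2, -1.30 to 0.41 for Klf4, -2.70 to 0.11 for Klf6, -0.55 to 0.47 for Klf10, -3.77 to 0.64 for Nr4a1 and -1.10 to 0.021 for Btg1. For the response difference they were -1.17 to 2.10 for Klf2, -1.30 to 0.30 for Klf4, -1.74 to 0.95 for Klf6, -0.62 to 0.29 for Klf10, -1.70 to 2.59 for Nr4a1, -0.47 to 1.235 for Nr4a2, -0.48 to 0.52 for Btg1, -0.19 to 0.68 for Btg2 and -0.86 to 1.04 for Zfp36.

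Whether replicate numbers pair the libraries was not settled, because only same-numbered libraries were correlated. Deviations of the 2 MPP PBS libraries from their mean mirror each other, so the MPP values cannot show pairing. Deviations of same-numbered HSC libraries correlated at -0.10 to 0.42 across genes, and those of MPP libraries at -0.40 and -0.14. With the replicate block the log2 fold change of Nr4a1 was -1.73 in HSCs and -1.47 in MPPs, and 0 members were called in either. Low levels limit Klf2 and Nr4a2, which averaged 3.08 and 5.13 CPM in HSCs given MTP10-HDL.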
